A study of Mus musculus with 24 samples.

Results

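A set of 10 genes that mark the endothelium, the single cell layer that lines the aorta, was followed across the study: *Pecam1*, *Cdh5*, *Kdr*, *Tek*, *Tie1*, *Vwf*, *Nos3*, *Eng*, *Esam* and *Cldn5*. They were chosen by gene symbol, and all 10 were among the 21959 genes of the count table. All 10 also passed the filter on low counts, which left 14216 genes for testing. Of the 10, 0 differed between groups by the test used, while each of them varied from library to library inside the groups, most of them together.

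Endothelial cells face the blood, hold to each other through adherens and tight junctions, and release nitric oxide, which relaxes the smooth muscle beneath them. They sense vascular endothelial growth factor (VEGF) and angiopoietins through receptor tyrosine kinases that few other cells carry. In an RNA sample of the whole aortic wall these cells are a small minority beside smooth muscle cells and fibroblasts. A lower value in such a sample can come from fewer endothelial cells, from less RNA of the gene per cell or from more RNA of other cells. Bulk RNA-seq cannot tell these apart.

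The samples were aortas of 24 male mice, wild type (WT) or ATAD3A-KI (KI), a knock-in of the mitochondrial membrane protein ATAD3A. From 3 weeks of age the mice drank either plain water or 0.5% (w/v) β-aminopropionitrile (BAPN) for 28 days. BAPN blocks lysyl oxidase, the enzyme that cross-links collagen and elastin, and serves as a model of aortic aneurysm and dissection. The groups were WT on plain water (6 libraries), WT on BAPN (WT-BAPN, 7), KI on plain water (KI, 5) and KI on BAPN (KI-BAPN, 6). The aortas were taken from the ascending part to the abdominal bifurcation. The labels used here name no promoter or cell type for the knock-in and no strain, and p-values measure the spread between these libraries.

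Library totals ran from 13127645 to 26490651 counts. *Atad3a* checked the labels: it stood at 40.1 ± 11.4 CPM (counts scaled to a common library total; SD, n = 6) in WT, 33.2 ± 7.25 (n = 7) in WT-BAPN, 1078 ± 408 (n = 5) in KI and 587 ± 262 (n = 6) in KI-BAPN. The smooth muscle gene *Acta2* ran from 4150 to 39688 CPM and *Myh11* from 2045 to 11870 CPM, while *Tagln*, also a smooth muscle gene, read 9.73 to 54.6 CPM, a level whose counting could not be checked here. *Tagln* adds little to the summed smooth muscle level used below. A list of 25 other endothelial genes was counted in every library for 25 of 25. Some libraries also held RNA of tissue around the aorta. In WT replicate 5 the summed level of 5 airway epithelium markers was 15650 CPM and that of 7 skeletal muscle markers 5470 CPM, against medians of 19.1 and 14.3 CPM in its group. In KI replicate 5 and KI-BAPN replicate 3, 7 adipocyte markers summed to 3914 and 3005 CPM, against group medians of 792 and 837 CPM, and in KI replicate 2, 5 sympathetic neuron markers summed to 1425 CPM.

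Set per kilobase of exon, the 10 levels fell into an order over the 24 libraries. *Pecam1* was highest at 46.4 ± 23.9 CPM per kilobase (SD over 24 libraries), and it stood above the next gene in 19 of 24 libraries. *Cldn5* (29.7 ± 23.7), *Eng* (27.0 ± 6.19) and *Esam* (26.8 ± 9.90) followed at levels that did not separate: *Cldn5* exceeded *Eng* in 10 libraries and *Eng* exceeded *Esam* in 11. A step came next, since *Esam* exceeded *Cdh5* (13.3 ± 7.44) in 24 of 24 libraries. *Tie1* (11.7 ± 5.82) lay beside *Cdh5*, which exceeded it in 16, and *Tek* (8.35 ± 3.52) lay below *Tie1* in 23. *Vwf* (5.69 ± 3.19), *Nos3* (4.44 ± 2.32) and *Kdr* (3.97 ± 2.93) closed the order, with *Kdr* below *Nos3* in 17 libraries. All values from here on are CPM scaled with the trimmed mean of M values (TMM), without the division by length.

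*Pecam1* (chromosome 11, 106654217 to 106750628, minus strand, 17 exon blocks, GRCm38) encodes PECAM-1, an adhesion molecule at contacts between endothelial cells that platelets and leukocytes also carry. It ran from 175 through a median of 238 to 691 CPM in WT, and from 110 through 193 to 319 CPM in WT-BAPN. In KI it read 218, 148, 358, 430 and 641 CPM, and in KI-BAPN it ran from 190 through 240 to 393 CPM. The highest WT library, replicate 6, lay above every BAPN library, but the 4 ranges overlapped. The log2 difference for BAPN was -0.62 ± 0.35 (SE) in WT (adjusted p = 0.281) and -0.48 ± 0.38 in KI (adjusted p = 0.688). Averaged over the genotypes it was -0.55 ± 0.26 with an unadjusted p of 0.0467 and an adjusted p of 0.232. Without WT replicate 6 the averaged value was -0.37.

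*Cdh5* (chromosome 8, 104101625 to 104144511, plus strand, 13 exon blocks) encodes VE-cadherin, the adherens junction protein of endothelial cells. It ran from 13.3 through 47.1 to 65.6 CPM in WT and from 16.6 through 53.7 to 124 CPM in WT-BAPN. *Cdh5* read 47.9, 45.6, 21.96, 41.4 and 139 CPM in KI, and in KI-BAPN it ran from 40.3 through 50.2 to 97.1 CPM. Medians of the 4 groups thus lay close together, and single libraries set the ends of each range. *Esam* (chromosome 9, 37528078 to 37538319, plus strand, 10 exon blocks), an adhesion molecule of the tight junction, varied less. It ran from 43.0 to 84.1 CPM in WT, from 57.8 to 111 CPM in WT-BAPN, from 53.1 to 191 CPM in KI and from 63.4 to 91.1 CPM in KI-BAPN, with medians of 76.0, 75.6, 69.2 and 70.6 CPM. The KI libraries other than replicate 5 reached at most 70.6 CPM.

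*Cldn5* (chromosome 16, 18776847 to 18778262, plus strand, 1 exon block) encodes claudin-5, the claudin that seals endothelial tight junctions. It was the member with the largest difference between groups, and that difference did not pass the test. In WT it ran from 11.4 through 34.5 to 40.2 CPM and in WT-BAPN from 6.65 through 24.8 to 52.3 CPM. In KI it read 27.0, 34.5, 39.9, 47.5 and 180 CPM, and in KI-BAPN it ran from 26.8 through 41.2 to 78.6 CPM. Only 1 KI library stood far from the WT libraries. The log2 difference of KI against WT was 1.03 ± 0.49 on plain water (unadjusted p = 0.0468, adjusted p = 0.286) and 0.73 ± 0.45 on BAPN (adjusted p = 0.475). Averaged over treatments it was 0.88 ± 0.33 (unadjusted p = 0.0147, adjusted p = 0.209). Without KI replicate 5 the value on plain water was 0.20 and the averaged value 0.46. That library also held the highest summed adipocyte level. With fat and muscle scores as covariates *Cldn5* was not called either, and the part of fat alone in the result was not tested.

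*Kdr* (chromosome 5, 75932827 to 75978458, minus strand, 29 exon blocks) encodes VEGF receptor 2, the main signalling receptor for VEGF-A. Its spread within groups was the widest of the 10. It ran from 5.56 through 29.9 to 65.02 CPM in WT and from 4.61 through 25.1 to 79.4 CPM in WT-BAPN. In KI it read 25.0, 26.6, 13.4, 16.7 and 83.9 CPM, and in KI-BAPN it ran from 25.8 through 28.7 to 102 CPM. The highest library stood 22.03-fold above the lowest. The largest log2 difference of *Kdr* among the comparisons of 2 groups was 0.54 ± 0.60 for KI against WT on BAPN (adjusted p = 0.722), and its 95% interval reached from -0.70 to 1.78. That value was 0.16 without KI-BAPN replicate 3 and 0.94 without WT-BAPN replicate 6, and its sign turned to -0.29 with fat and muscle scores as covariates.

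*Tek* (chromosome 4, 94739289 to 94874976, plus strand, 23 exon blocks) encodes Tie2, the receptor for angiopoietins, and *Tie1* (chromosome 4, 118471191 to 118490061, minus strand, 22 exon blocks) its relative that modulates it. *Tek* ran from 14.2 through 32.0 to 54.9 CPM in WT, from 12.1 through 37.5 to 70.7 CPM in WT-BAPN, from 21.1 through 36.4 to 69.9 CPM in KI and from 30.1 through 40.7 to 60.4 CPM in KI-BAPN. *Tie1* ran from 18.5 through 52.4 to 74.8 CPM, from 27.4 through 51.6 to 119 CPM, from 21.1 through 53.1 to 146 CPM and from 38.3 through 55.9 to 82.9 CPM in the same order of groups. For both receptors the median of every group lay inside the range of every other group. Their log2 differences among the comparisons of 2 groups ran from 0.07 to 0.32 for *Tek* and from -0.15 to 0.35 for *Tie1*.

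*Eng* (chromosome 2, 32646595 to 32682669, plus strand, 14 exon blocks) encodes endoglin, a co-receptor for bone morphogenetic proteins (BMP) and transforming growth factor β that other cells of the vessel wall also make. It was the steadiest member. It ran from 74.3 through 103 to 144 CPM in WT and from 81.8 through 115 to 158 CPM in WT-BAPN. The KI libraries read 98.8, 71.9, 93.4, 120 and 156 CPM, and in KI-BAPN it ran from 86.6 through 100.2 to 120 CPM. Its log2 difference was 0.14 ± 0.18 for BAPN in WT, with a 95% interval from -0.24 to 0.53, and -0.08 ± 0.20 for BAPN in KI, with an interval from -0.50 to 0.33. It shares 61 exon bases with *Fpgs* on the opposite strand, a gene at 10.3 to 31.4 CPM, and the strand setting of the counting is not given in the sources used here.

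*Vwf* (chromosome 6, 125546774 to 125686679, plus strand, 56 exon blocks) encodes von Willebrand factor, the clotting protein that endothelial cells store and secrete. It ran from 29.5 through 59.0 to 212 CPM in WT and from 31.2 through 73.0 to 144 CPM in WT-BAPN. *Vwf* read 81.2, 48.5, 31.1, 152 and 194 CPM in KI, and in KI-BAPN it ran from 61.1 through 90.5 to 146 CPM. The groups overlapped over most of their range. The log2 difference of *Vwf* was -0.08 ± 0.46 for BAPN in WT and 0.19 ± 0.50 for KI against WT on plain water.

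*Nos3* (chromosome 5, 24364810 to 24384474, plus strand, 26 exon blocks) encodes endothelial nitric oxide synthase. It ran from 8.22 through 18.3 to 40.3 CPM in WT and from 6.598 through 14.9 to 33.7 CPM in WT-BAPN. In KI it read 17.5, 12.9, 4.66, 20.3 and 43.9 CPM. In KI-BAPN the 6 libraries lay between 13.3 and 16.7 CPM, a mean of 15.1 ± 1.16 (SD, n = 6). The highest library of that group stood 1.26-fold above its lowest, against 4.90-fold in WT, 5.11-fold in WT-BAPN and 9.42-fold in KI, and this difference in spread was not tested. The log2 difference of *Nos3* was -0.20 ± 0.40 for BAPN in WT and -0.40 ± 0.43 for BAPN in KI. *Nos3* shares 294 exon bases with *Atg9b* on the opposite strand, and *Atg9b* reached at most 2.37 CPM. It shares 1040 with the antisense gene *Gm15587*, also on the opposite strand. *Gm15587* is not in the count table, so its level could not be checked here.

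**Figure D1:**
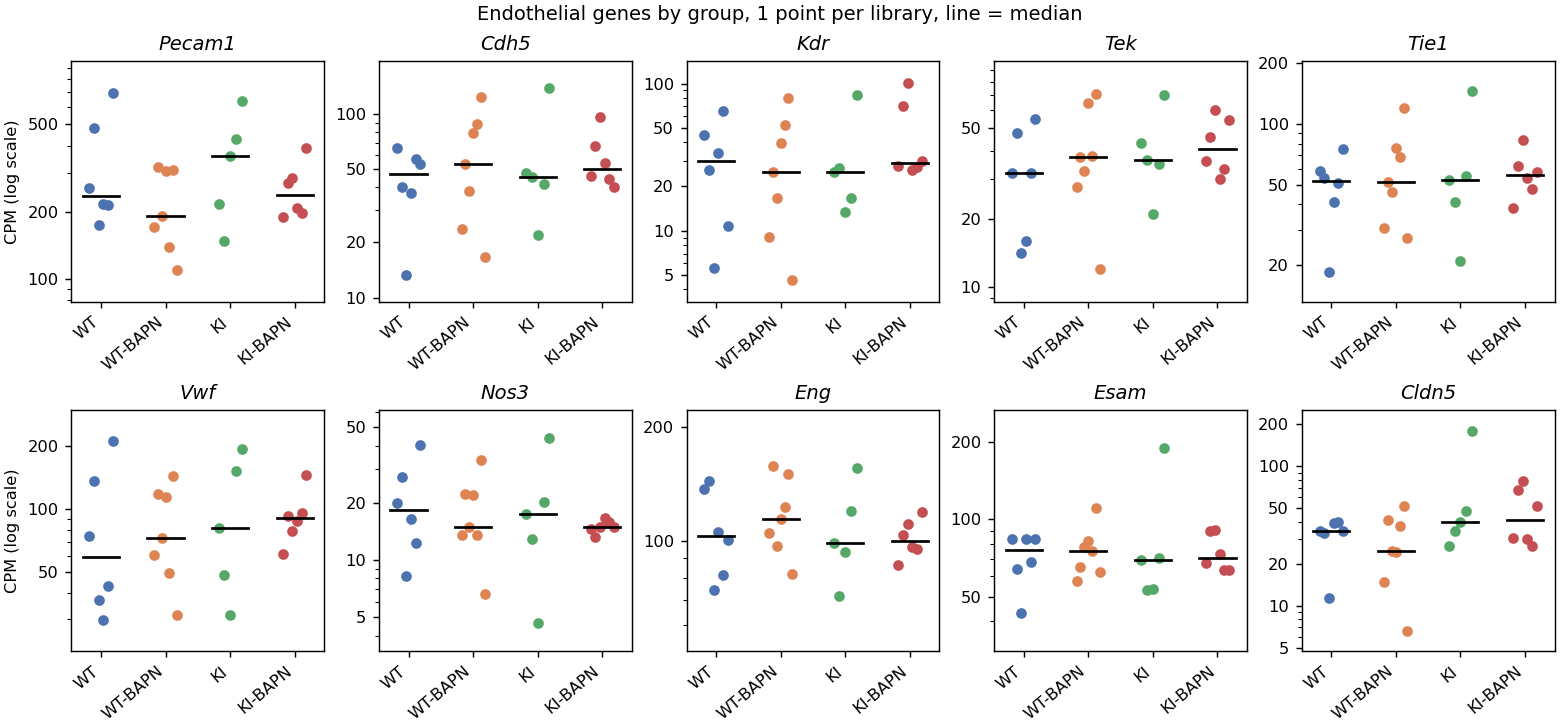
CPM of each member on a log axis, with 1 point per library and a line at the group median, for WT (n = 6), WT-BAPN (n = 7), KI (n = 5) and KI-BAPN (n = 6). The 4 groups overlap for all 10 genes, and KI replicate 5 is the top point of its group in each panel. For each gene the KI-BAPN points span the smallest fold of the 4 groups, and those of *Nos3* lie between 13.3 and 16.7 CPM.

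The question of the design, whether BAPN or the knock-in moved these genes, was put to edgeR's quasi-likelihood test with Benjamini-Hochberg adjustment over the 14216 genes. For BAPN in WT, 0 of 10 members passed an adjusted p of 0.05, where 873 of all genes (6.14%) did. For BAPN in KI the count was 0 of 10 (all genes 0.0352%), for KI against WT on plain water 0 of 10 (0.19%) and for KI against WT on BAPN 0 of 10 (0.00703%). The interaction of KI and BAPN, which asks whether the 2 genotypes responded differently, also gave 0 of 10 (0% of all genes). Averaged over genotypes, BAPN gave 0 of 10 (4.14%), and averaged over treatments, KI gave 0 of 10 (0.211%). At an unadjusted p under 0.05 the counts of members in these 7 comparisons, in the order above, were 0, 0, 1, 0, 0, 1 and 1, against 25, 10.1, 16.9, 13.9, 14.8, 20.7 and 16.2% of all genes. The members were *Cldn5* for KI against WT on plain water and averaged over treatments, and *Pecam1* for BAPN averaged over genotypes. DESeq2 also called 0 members in each of the 7, where it called 10.2, 2.04, 3.46, 0.111, 0.162, 8.79 and 2.77% of all genes. So did limma voom, with 29.8, 0, 1.91, 0.0211, 0.0281, 16.8 and 2.14%. With 10 members, a count of 0 is near most of these backgrounds.

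The median log2 difference of the 10 members was 0.07 for BAPN in WT, with 6 above 0 and 4 below, where the median of all genes was -0.04. For BAPN in KI it was -0.13, with 2 above 0 and 8 below (all genes -0.03). For KI against WT it was 0.24 on plain water, with 9 above 0, and 0.04 on BAPN, with 5 above 0 (all genes -0.01 and -0.02). The median on plain water turned to -0.20 without KI replicate 5, and the median for BAPN in KI turned to 0.32. In none of the 4 comparisons of 2 groups did a member have all libraries of one group above all of the other. Among all genes that held for 2.1% (BAPN in WT), 0.647% (BAPN in KI), 2.32% (KI against WT on plain water) and 0.218% (KI against WT on BAPN).

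How large a difference these libraries could have missed varied by member. *Eng* had the narrowest 95% interval in each of the 4 comparisons of 2 groups, reaching 0.38 to 0.41 log2 units to either side of the estimate. *Kdr* had the widest, at 1.24 to 1.36 log2 units. The median over all genes was 0.46 to 0.50. These intervals are not adjusted for the number of genes, and their width is not a limit of detection. With intervals this wide, a sizeable *Kdr* difference could have been missed. A p above the threshold does not show that levels were equal.

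**Figure D2:**
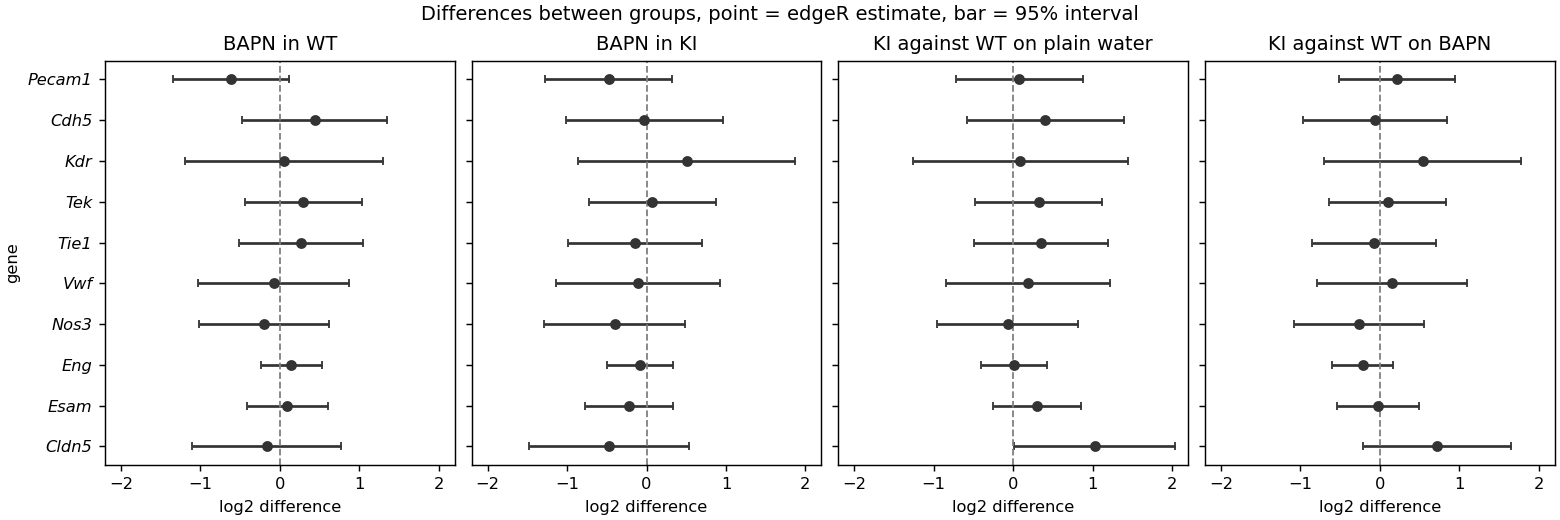
Log2 difference of each member (horizontal axis) in the 4 comparisons of 2 groups, as edgeR's estimate (point) with its 95% interval (bar), and a dashed line at 0. All intervals include 0 except that of *Cldn5* for KI against WT on plain water, which starts at 0.02 and whose adjusted p is 0.286, and those of *Kdr* are the widest.

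The variation lay between libraries of a group. The SD of log2 CPM within groups was 1.20 for *Kdr*, 0.89 for *Vwf*, 0.87 for *Cldn5*, 0.86 for *Cdh5*, 0.78 for *Nos3*, 0.72 for *Tie1*, 0.70 for *Tek* and 0.67 for *Pecam1*. It was 0.44 for *Esam* and 0.34 for *Eng*, and the median over all genes tested was 0.40. *Kdr* lay at the 90.7th percentile of all genes and *Eng* at the 38.7th. From the lowest to the highest of the 24 libraries, *Cldn5* spanned 27.1-fold, *Cdh5* 10.5-fold, *Tie1* 7.90-fold and *Eng* 2.204-fold.

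The same few libraries held the extremes. KI replicate 5 was among the 3 highest of 24 libraries for 10 of 10 members, and WT-BAPN replicate 6 for 7. KI-BAPN replicate 3 was among the 3 highest for 5 members, and WT replicate 6 for 3. At the other end, WT replicate 3 and WT-BAPN replicate 7 were each among the 3 lowest for 8 members and below the median for 10 of 10. KI replicate 3 was among the 3 lowest for 5. High and low libraries thus came from both genotypes and both treatments.

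Levels of other tissue were at their extremes in some of these libraries and not in others. WT-BAPN replicate 7 had the highest summed level of 6 smooth muscle markers in its group (42406 CPM) and the lowest adipocyte sum (321 CPM). WT-BAPN replicate 6 had the lowest smooth muscle sum (14881 CPM) and the highest adipocyte sum (1165 CPM). KI replicate 3, low in the members, had the highest smooth muscle sum of KI (53667 CPM), and KI-BAPN replicate 3, high in the members, the lowest of KI-BAPN (10345 CPM). The 12 markers of venous, capillary and lymphatic endothelium summed to 722 CPM in KI replicate 5 (group median 188 CPM), 650 CPM in KI-BAPN replicate 3 (303 CPM) and 96.0 CPM in WT-BAPN replicate 7 (226 CPM). By these sums, other libraries went the other way. WT replicate 6, high in the members, had the lowest adipocyte sum of WT (681 CPM), and KI replicate 2, with 9 of 10 members below the median, had the lowest smooth muscle sum of KI (23132 CPM). The mean log2 CPM of the 7 adipocyte markers ranked some libraries otherwise. Lowest of their groups were WT replicate 3 (4.09), WT-BAPN replicate 7 (2.27), KI replicate 3 (2.94) and KI-BAPN replicate 1 (3.62). Each was also lowest of its group by the mean of the members. Highest were WT replicate 5 (6.42), WT-BAPN replicate 6 (6.08), KI replicate 5 (8.11) and KI-BAPN replicate 3 (8.11). Each but WT replicate 5 was also highest by the mean of the members. Mitochondrial counts made up 14.8% of KI-BAPN replicate 3, 14.7% of KI replicate 5 and 12.8% of WT-BAPN replicate 6. They made up 6.67% of WT replicate 6, also high in the members. In libraries low in the members the share was 11.7% (WT replicate 3), 9.96% (WT-BAPN replicate 7) and 6.96% (KI replicate 3). The part of these tissues and of this share in the members' levels was not tested.

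**Figure D3:**
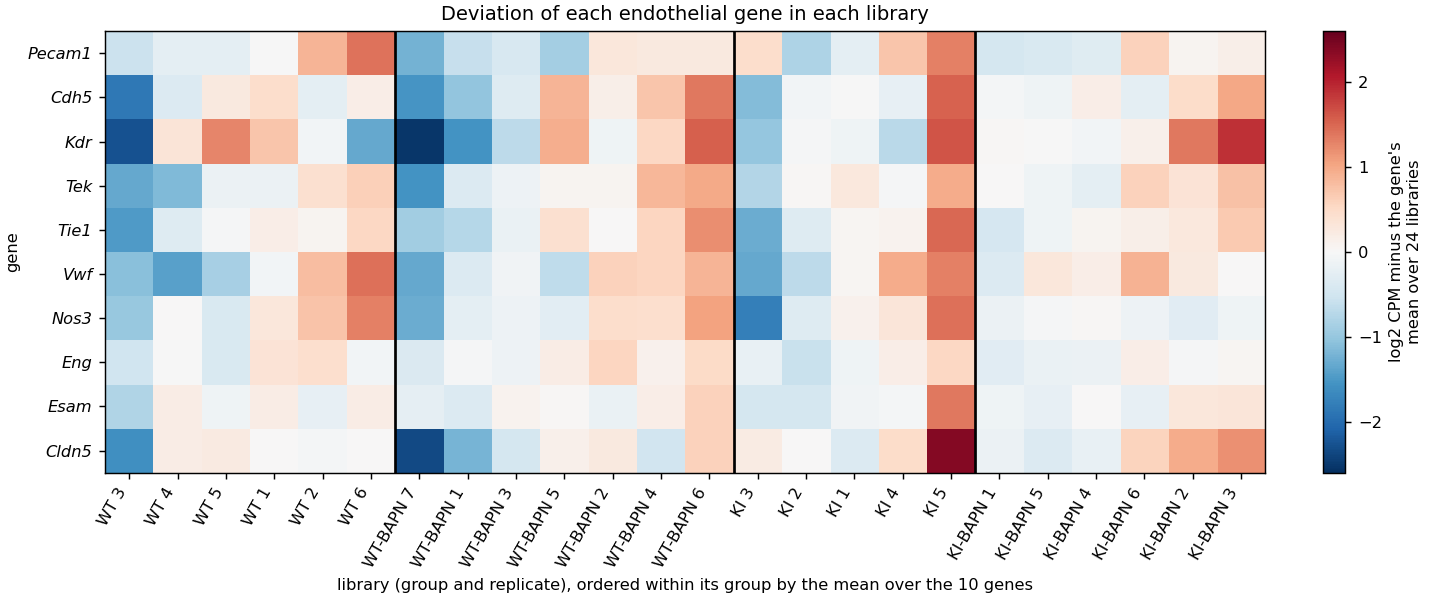
Log2 CPM of each member (rows) in each library (columns, by group and, within a group, by the mean over the 10 genes), minus the gene's mean over the 24 libraries, from blue (lower) to red (higher). KI replicate 5 is red in all 10 rows, WT replicate 3 and WT-BAPN replicate 7 are blue in all 10, and WT replicates 5 and 6 change colour between *Kdr* and *Vwf*.

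With the group means removed, log2 CPM of most pairs of members rose and fell together over the 24 libraries. Of 45 pairs, 43 passed an adjusted p of 0.05 for Pearson's r and 39 for Spearman's rho, by permutation within groups with Benjamini-Hochberg adjustment over the pairs, and r ran from 0.28 to 0.94. *Cdh5* and *Tie1* were closest (r = 0.94, rho = 0.91, permutation p = 1e-05 for each, the smallest that these permutations can give, adjusted p = 7.5e-05 for r), and r was 0.91 without the 2 libraries farthest from the median of *Cdh5*. *Cdh5* and *Kdr* reached r = 0.91 and rho = 0.86 (adjusted permutation p = 7.5e-05 and 0.0003), and 0.88 without the 2 farthest. *Vwf* and *Nos3* reached r = 0.89 and rho = 0.91 (adjusted permutation p = 7.5e-05 and 0.000113), and 0.85 without the 2 farthest. Each member correlated with the mean of the other 9 at r between 0.68 (*Pecam1*) and 0.96 (*Tie1*), and between 0.62 and 0.94 without KI replicate 5.

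The 2 lowest correlations both involved *Kdr*. *Kdr* with *Pecam1* gave r = 0.28 and rho = 0.22 (adjusted permutation p = 0.231 and 0.354), and r = 0.33 without the 2 libraries farthest from the median of *Pecam1*. *Kdr* with *Vwf* gave r = 0.28 and rho = 0.27 (adjusted permutation p = 0.231 and 0.258), and r fell to 0.06 without WT-BAPN replicate 7 and WT replicate 3. *Kdr* with *Cldn5* gave r = 0.84 and rho = 0.81 (adjusted permutation p = 7.5e-05 and 0.000113; 0.75 without the 2 farthest), and *Pecam1* with *Vwf* gave r = 0.84 and rho = 0.82 (adjusted permutation p = 0.000164 and 0.000321; 0.77 without the 2 farthest). *Tie1* and *Tek* correlated with both *Kdr* (r = 0.78 and 0.67) and *Vwf* (r = 0.74 and 0.81). Whether these correlations differ from each other was not tested.

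**Figure D4:**
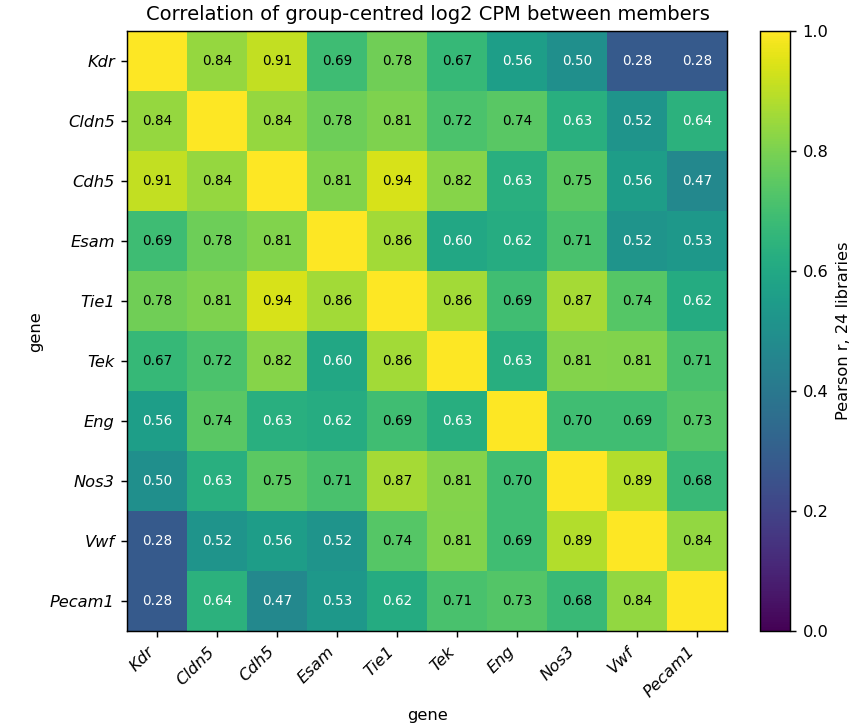
Pearson's r between members over 24 libraries, from log2 CPM with group means removed, on a colour scale from 0 to 1 with r printed in each cell. *Cdh5* and *Tie1* reach 0.94, and *Kdr* reaches 0.28 with both *Vwf* and *Pecam1*.

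The 2 WT libraries at the ends of the ratio of *Vwf* to *Kdr* are given as an example. WT replicate 6 held the highest *Vwf* (212 CPM) and *Pecam1* (691 CPM) of all libraries, with *Kdr* at only 10.8 CPM. WT replicate 5 held *Vwf* at 43.1 CPM with *Kdr* at 65.02 CPM, the highest *Kdr* of its group. The ratio of *Vwf* to *Kdr* was therefore 19.7 in one WT library and 0.663 in another, with a group median of 3.48. It ran from 0.956 through 4.35 to 6.77 in WT-BAPN, from 1.82 through 2.33 to 9.09 in KI and from 0.775 through 2.81 to 4.93 in KI-BAPN. WT replicate 5 is the library with airway and skeletal muscle RNA. Over all 24 libraries the ratio was set against the scores of 22 marker lists, and 0 of them passed an adjusted p of 0.05 by permutation within groups (lowest adjusted p = 0.201 for Pearson's r).

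**Figure D5:**
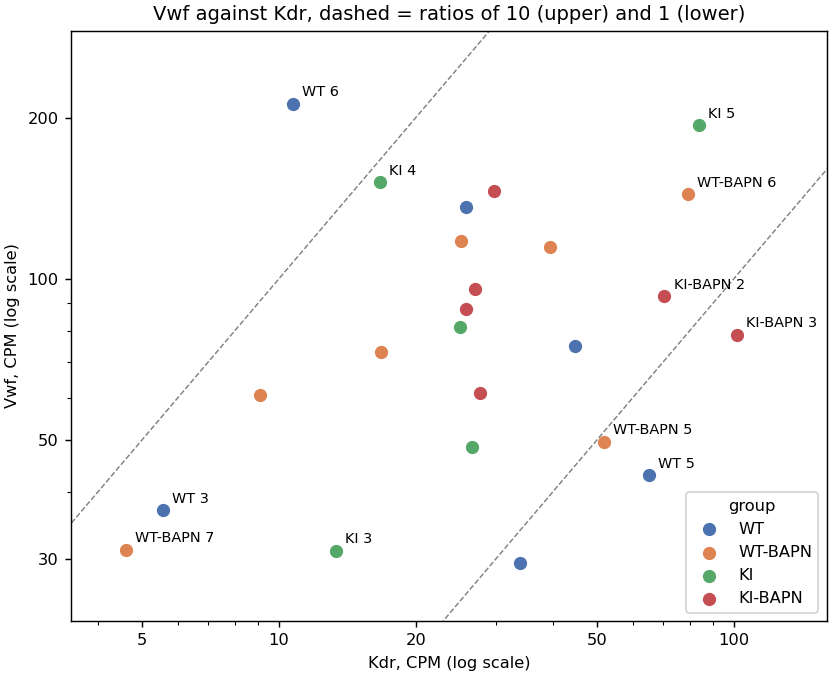
CPM of *Vwf* (vertical, log axis) against CPM of *Kdr* (horizontal, log axis), 1 point per library coloured by group, with dashed lines at ratios of 10 and 1 and selected libraries named. WT replicate 6 lies above the upper line at a ratio of 19.7, WT replicate 5 below the lower line at 0.663, and KI replicate 5 is high on both axes.

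Upstream sequence of *Kdr*, *Cldn5* and *Eng* is given because *Kdr* and *Cldn5* spanned the widest ranges and varied together, while *Eng* spanned the narrowest. RefSeq promoters of GRCm38.p6 matched 5 of the 10 members, namely *Kdr*, *Tek*, *Tie1*, *Eng* and *Cldn5*, and the other members are *Pecam1*, *Cdh5*, *Vwf*, *Nos3* and *Esam*. Each line gives the 250 bases before the start, 5′ to 3′ on the gene's strand, for *Kdr* at chr5:75978456-75978705 (minus), *Eng* at chr2:32646345-32646594 (plus) and *Cldn5* at chr16:18776597-18776846 (plus). Capitals mark AGGAAG or CCGGAA on either strand, core letters bound by ETS factors, the family of the endothelial regulators ERG and FLI1.
Kdr: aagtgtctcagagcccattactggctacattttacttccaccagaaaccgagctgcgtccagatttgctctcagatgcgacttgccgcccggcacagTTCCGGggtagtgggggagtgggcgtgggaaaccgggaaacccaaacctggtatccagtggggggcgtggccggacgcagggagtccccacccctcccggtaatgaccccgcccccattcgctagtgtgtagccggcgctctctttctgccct
Eng: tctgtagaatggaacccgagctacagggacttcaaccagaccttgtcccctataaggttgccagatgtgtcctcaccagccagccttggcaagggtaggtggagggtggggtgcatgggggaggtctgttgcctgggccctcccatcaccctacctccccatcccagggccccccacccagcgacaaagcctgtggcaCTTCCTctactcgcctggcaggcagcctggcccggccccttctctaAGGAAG
Cldn5: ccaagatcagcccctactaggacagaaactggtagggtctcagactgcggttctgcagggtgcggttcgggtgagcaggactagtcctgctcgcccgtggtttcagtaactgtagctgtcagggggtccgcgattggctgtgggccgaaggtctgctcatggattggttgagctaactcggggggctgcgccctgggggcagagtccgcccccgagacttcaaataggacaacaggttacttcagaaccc
*Kdr* held 1 CCGGAA, *Eng* held 2 AGGAAG and *Cldn5* held neither. Of 32851 promoter windows of this length, 29.5% held AGGAAG and 12.0% held CCGGAA on either strand, so such matches are common. CACCC, the core of KLF sites, was in 5 of the 5 member windows and in 52.0% of all. The composite letters AACAGGAAG were in 0 of the 5 members and in 0.868% of all, and TATAAA in 0 of the 5 and 12.4% of all. A match describes the letters and is not a bound site.

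Outside the members, 10 genes were most like their mean over the 24 libraries with group means removed. *She* came first (r = 0.97, rho = 0.96), then *Hspa12b* (r = 0.95), *Fgd5* and *Arhgef15* (0.94 each), *Ptprb* (0.94), *Notch4* (0.94), *S1pr1* (0.93), *Adcy4*, *Clic5* (0.92 each) and *Adgrf5* (0.92). *Ptprb* encodes the phosphatase VE-PTP, which acts on Tie2 and VE-cadherin, and *S1pr1* a receptor for sphingosine 1-phosphate. The 3 lists of endothelial genes set beside this ranking were chosen with earlier results of these data known. Of their 47 genes, 15 were among the 50 most alike of 14206 ranked genes, 23 among the 100 and 30 among the 500. *She* read 14.4 ± 6.29 CPM (SD, n = 6) in WT, 12.6 ± 7.39 (n = 7) in WT-BAPN, 15.7 ± 11.8 (n = 5) in KI and 15.6 ± 5.33 (n = 6) in KI-BAPN.

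The wider endothelial lists also gave counts of 0. Of all genes, 6.14% passed for BAPN in WT and 4.14% for BAPN averaged over genotypes, and 0 to 0.211% in the other comparisons. Counts of 0 in lists this short lie near those shares and set no list apart. Of 25 other endothelial genes, 0 passed the test in each of the 7 comparisons, and their median log2 difference was 0.07 for BAPN in WT, 0.01 for BAPN in KI, 0.08 for KI against WT on plain water and 0.07 on BAPN. Of 10 arterial genes 0 passed in any, the nearest being *Efnb2* for BAPN in WT (adjusted p = 0.0501), which encodes ephrin-B2. Of 12 venous, capillary and lymphatic genes 0 passed in any, with a median of -0.53 for BAPN in WT and 0.87 for KI against WT on BAPN, where 12 of 12 lay above 0. The 7 adipocyte markers moved the same way in these comparisons, with medians of -0.44 (7 of 7 below 0) and 1.76 (7 of 7 above 0) and 0 past the test, and their part in these values was not tested. Of 9 partners of the junction proteins, 0 passed in any comparison, and of 11 tested genes of nitric oxide signalling, 0 did.

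In the lists of the members' pathways, few genes passed, each in a comparison of BAPN with plain water, where 6.14% (BAPN in WT) and 4.14% (averaged over genotypes) of all genes passed. Counts of 1 in lists this short lie near those shares and set no list apart. Of 9 genes of activated endothelium 1 rose, *Esm1*, which encodes endocan, a proteoglycan of VEGF-stimulated tip cells. It ran from 0.542 through 1.44 to 3.84 CPM in WT and from 1.24 through 2.62 to 64.3 CPM in WT-BAPN. The top value was that of WT-BAPN replicate 7, the library lowest in *Kdr*. *Esm1* changed by a log2 difference of 2.79 ± 0.81 for BAPN in WT (adjusted p = 0.043) and 2.29 ± 0.59 averaged over genotypes (adjusted p = 0.0322). Without WT-BAPN replicate 7 the value in WT was 1.02 with an adjusted p of 0.197, and the averaged value 1.41 with an adjusted p of 0.0414. The call in WT was lost in 8 of 13 omissions of 1 library, those of WT replicates 1, 2, 3, 4 and 6 and WT-BAPN replicates 5, 6 and 7. The averaged call was lost in 4 of 24, those of WT replicates 1 and 4, KI replicate 5 and KI-BAPN replicate 3.

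Of 12 tested genes of endoglin and BMP signalling 1 fell, *Id1*, a target of BMP receptors. Which cells of the wall the fall came from, and whether endoglin had a part in it, was not tested. *Id1* read 206 ± 73.0 CPM (SD, n = 6) in WT, 106 ± 36.0 (n = 7) in WT-BAPN, 197 ± 96.8 (n = 5) in KI and 97.5 ± 26.4 (n = 6) in KI-BAPN. Its log2 difference for BAPN averaged over genotypes was -0.99 ± 0.22 (adjusted p = 0.019), and the call stood in 24 of 24 omissions of 1 library. With the replicate number as a block the value was -1.07 (adjusted p = 0.0512). Within WT the difference was -0.96 ± 0.30 (adjusted p = 0.0586). *Eng*, the co-receptor of that pathway, differed by 0.03 ± 0.14 in the same averaged comparison.

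Of 11 genes of VEGF and angiopoietin signalling, 1 rose with BAPN averaged over genotypes, *Vegfd*, which encodes a growth factor of the VEGF family. Its log2 difference was 0.57 ± 0.16 (adjusted p = 0.0451). *Vegfd* read 21.4 ± 5.15 CPM (SD, n = 6) in WT, 29.7 ± 7.96 (n = 7) in WT-BAPN, 26.4 ± 5.59 (n = 5) in KI and 42.2 ± 14.95 (n = 6) in KI-BAPN. The call was lost in 15 of 24 omissions of 1 library, those of 3 WT libraries (replicates 3, 4 and 6), 5 of WT-BAPN (2 to 6), 3 of KI (2, 3 and 5) and 4 of KI-BAPN (2 to 5), and the highest adjusted p was 0.0963 without KI replicate 5. With fat and muscle scores as covariates the *Vegfd* value was 0.39 (adjusted p = 0.192), and without 4 libraries set apart for other tissue 0.50 (adjusted p = 0.108). *Pecam1* and *Vwf* are also made by platelets and megakaryocytes, whose 6 markers summed to between 5.64 and 125 CPM. Of the 5 tested, 1 rose with BAPN averaged over genotypes, *Pf4*, which encodes platelet factor 4, by 1.60 ± 0.43 (adjusted p = 0.0382). This call was lost in 10 of 24 omissions, those of WT replicates 1, 3, 4 and 6, WT-BAPN replicate 5, KI replicates 1, 3 and 5, and replicates 3 and 6 of KI-BAPN. *Pecam1* and *Vwf* differed by -0.55 ± 0.26 and -0.09 ± 0.34 in that comparison, and neither passed the test. The library highest in *Pf4* also had the highest summed level of 6 leukocyte markers in WT-BAPN (replicate 5), KI (replicate 4) and KI-BAPN (replicate 3). In WT it did not. Which cells the *Pf4* rise came from was not tested.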

How the data were processed

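The labels' protocols describe poly(A) RNA of aortas sequenced on an Illumina platform. Per the labels, the deposited table holds read counts for each gene, made by the authors and not normalized. The submitters' processing notes list Trim Galore, FastQC, HISAT2 and DESeq2, and as builds GRCm38 and mm10; which program counted reads, with which strand setting and versions, is not given in the sources used here. Exon length in bases, also deposited by the authors, served to scale levels per kilobase. That length equalled the exon union of GENCODE M21 for all 10 members, but the deposited starts and ends did not match it, so positions are those of GENCODE M21 (GRCm38). Each of the 24 count columns carries a code that 1 sample's labels also give, and 0 per-sample columns remained without a sample. No library repeated another (chi-square of counts at least 30.8 per degree of freedom within groups).

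The counts went into edgeR 4.0.16 (R 4.3.3), with TMM factors, genes kept by filterByExpr, a mean for each of the 4 groups over 24 libraries and the robust quasi-likelihood F test. A gene was called at a Benjamini-Hochberg adjusted p below 0.05, and intervals are at 95%. Log2 CPM used a prior count of 2. Correlations were tested with 100000 permutations within groups. The code was tested on simulated data. The members, the gene lists and the tests were chosen with earlier results of these data known. The text names all 10 members, up to 4 genes of each other list by smallest adjusted p, and the 10 genes most like the members. Alternatives tried were DESeq2 1.42.0 and its size factors, library totals, limma 3.58.1 voom with quality weights, other filters and thresholds, another quasi-likelihood method, a fit of only the groups compared, marker scores as covariates, the replicate block, 4 libraries left out together and each library left out. Same-numbered libraries were checked for pairing: of 33 such pairs 16 correlated above 0.1, so the numbers were not taken to pair samples.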

Additional observations from a re-analysis of the deposited data

Results flagged for a closer look

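Each member was checked in each group for a library that stands apart from the others by Dixon's criterion at 95%. The check used CPM and not log2 CPM, and 6 of 40 combinations of member and group held such a library. Members rose and fell together, so these combinations are not independent, and their number is not set against chance. KI replicate 5 stood above the rest of its group in this way for 5 members: *Cdh5* at 139 CPM, *Kdr* at 83.9 CPM, *Tie1* at 146 CPM, *Esam* at 191 CPM and *Cldn5* at 180 CPM. The other 4 KI libraries reached at most 47.9 CPM for *Cdh5* and 47.5 CPM for *Cldn5*. In WT, replicate 3 stood below its group for *Cldn5*, at 11.4 CPM where the other 5 libraries read 33.4 to 40.2 CPM. WT replicate 3 is also the library with the fewest counts (13127645). WT-BAPN replicate 4, next in depth at 13908765 counts, had 9 members above the median. WT-BAPN replicate 3, close to it at 13918940 counts, had 9 members below the median. The part of depth in these values was not tested.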

How the results depend on the processing

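In each of the 7 comparisons 0 members were called under every alternative that was run: other size factors, library totals, DESeq2, limma voom, the newer quasi-likelihood method, no robust estimation, both other filters, only the groups compared (for the 4 comparisons of 2 groups), both kinds of covariate, without 4 libraries that earlier results of these data set apart for RNA of other tissue (WT replicate 5 and KI replicates 1, 2 and 5; KI-BAPN replicate 3 was left out only singly), at adjusted p of 0.1 and 0.01, and without each library in turn (range 0 to 0). Leaving out those 4 libraries together kept only replicates 3 and 4 of KI, so a count of 0 there says little about KI. With the replicate block the count was also 0 in each comparison, and 4 of 24 libraries correlated best with their own number. Over 2080 combinations of member, comparison and alternative, 181 changed sign with no call, and the largest main value among them was 0.54 in size. Counts over all genes depend on the tool: for BAPN in WT, edgeR called 873, DESeq2 1510 and limma voom 4234. With library totals in place of TMM factors, the median over all genes for BAPN in WT moved to 0.11 (from -0.04) and that of the members to 0.25 (from 0.07). The *Id1* call was lost with the replicate block (-1.07 against -0.99, adjusted p = 0.0512). Of the 12 alternatives other than leaving out 1 library, 11 kept that of *Esm1* averaged over genotypes, 8 that of *Vegfd* and 9 that of *Pf4*, and 8 of 13 kept that of *Esm1* in WT. The number of mice, the spread between libraries and depth all limit precision. The lowest count of a member in any library was 65 reads, for *Kdr*.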

Other observations

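Some genes known from endothelium did not follow the members from library to library. *Erg*, an ETS transcription factor of endothelial cells, correlated with the mean of the members at r = -0.14 (rho = -0.13, 24 libraries, group means removed), while *Fli1*, an ETS factor shared with blood cells, reached r = 0.69. *Erg* read 46.2 ± 15.2 CPM (SD, n = 6) in WT, 62.7 ± 17.0 (n = 7) in WT-BAPN, 58.8 ± 9.77 (n = 5) in KI and 54.0 ± 16.3 (n = 6) in KI-BAPN. *Efnb2* (r = -0.10) and *Unc5b* (r = 0.02), both on the arterial list, did not follow the members, whereas *Notch4* (r = 0.94) and *Sema3g* (r = 0.86) of the same list did. Such r values describe these libraries, and the gap between them was not tested.

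*Esm1* was highest of all in WT-BAPN replicate 7 (64.3 CPM), where *Kdr* (4.61 CPM), *Cldn5* (6.65 CPM) and *Tek* (12.1 CPM) were at their lowest of the 24 libraries.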
